A study of Akebia trifoliata with 9 samples.

Results

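Leaves of Akebia trifoliata, a woody vine, were compared with and without curcumin under simulated acid rain. The CUR50 plants had a curcumin solution of 50 µmol/L poured on the roots and acid rain of pH 2.0 sprayed on the leaves. The CUR0 plants received the same spray and a solution without curcumin (0 µmol/L). Both groups were treated for 28 days, with 500 mL per pot given again every 2 days, and neither was spared the acid rain, so the comparison holds nothing on curcumin in unstressed leaves. Each group has 3 of the 9 libraries of the series. The other 3, Control plants watered and sprayed with distilled water, are given as values only and enter 1 alternative fit. Per the labels, all plants were cuttings, and 4 plants per treatment were chosen as 3 replicates, so it is unclear whether a library is 1 plant. The p-values judge the difference between groups only against the spread among these libraries, and some of that spread may be technical. The labels name no solvent for the curcumin.

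Of the 82321 genes of the expression table, 26748 had at least 1 TPM in at least 3 of the 6 libraries and were tested, and 55573 did not reach this level. TPM is a length-corrected measure in which the values of all genes of a library add up to the same total, so each value is a share of that library. The genes carry identifiers of a transcriptome assembled from the reads, and 0 of the 82321 matched the 32005 genes of the reference table for this species. No name, function or position is therefore attached to a gene, pathways and tissue markers could not be read, the labelled tissue could not be checked against leaf markers, and the individual genes shown are limited to 2 that rose and 2 that fell.

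Acid rain wets leaves with dilute acid, which damages the cuticle, leaches ions and raises reactive oxygen species in leaf cells. Plants answer acidity and oxidative stress by changing the transcription of genes for antioxidant enzymes, ion transport, cell walls and hormone signalling. Curcumin is the yellow polyphenol of the turmeric rhizome and is known as an antioxidant in laboratory assays. These statements are background and were not tested with the data.

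The CUR50 libraries were more unlike each other than the CUR0 libraries. Across the tested genes, correlations of log2(TPM + 1) ran from 0.888 to 0.916 between CUR50 libraries and from 0.947 to 0.954 between CUR0 libraries. CUR50 replicate 2 correlated at 0.916 to 0.926 with the CUR0 libraries, above its 0.888 to 0.914 with the other CUR50 libraries. CUR50 replicate 1 was the CUR50 library farthest from the mean of the other two in 42.7% of tested genes, against 28.6% for replicate 2 and 28.7% for replicate 3. The CUR0 libraries were about as uneven in this respect, with 40.0% for replicate 1, 35.5% for replicate 2 and 24.5% for replicate 3. The median SD within a group was 0.30 in CUR50 and 0.20 in CUR0 on the log2(TPM + 1) scale, and the SD was larger in CUR50 in 67.2% of tested genes. The test therefore gave each group a weight of its own, 0.679 for CUR50 and 1.47 for CUR0, which corresponds to a spread 1.47 times as wide in CUR50. TPM keeps no read numbers, so the depth behind each value is unknown.

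Curcumin-treated leaves differed from untreated ones in a small set of genes at this replication. In CUR50 leaves 105 of the 26748 tested genes changed (0.393%), of which 32 were higher (0.12%) and 73 lower (0.273%) than in CUR0 leaves (limma with group weights, Benjamini-Hochberg adjusted p under 0.05). The genes that rose had a median difference of 1.99 on the log2(TPM + 1) scale, from 0.90 to 3.85, and those that fell had a median of -2.15, from -0.75 to -5.46. These include 12 and 32 genes under 1 TPM in all libraries of the lower group, which met the filter only through the other group. The 19 and 33 genes at 1 TPM or more in all 6 libraries had medians of 1.67 and -1.47. The median over all tested genes was 0.15, with quartiles at -0.17 and 0.39. All 105 had CUR50 values entirely above or entirely below the CUR0 values, as had 28.5% of all tested genes. The calls were made on these same values and favour such genes, so this is no separate support. Many of them lay just inside the threshold, with a median adjusted p of 0.0378 and 4 under 0.01, and 841 genes, 359 higher and 482 lower, had an adjusted p under 0.1.

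The number of calls changed with every library left out. Without CUR50 replicate 1, 2 or 3 it was 41, 209 or 1, and without CUR0 replicate 1, 2 or 3 it was 25, 3 or 2. A fit without 1 library has fewer values from which to estimate the spread, which by itself can remove calls near the threshold. The part of this in the changes was not tested. The excess of genes that fell turned when CUR50 replicate 2 was left out, with 129 higher and 80 lower. In each of these 6 fits all 105 genes kept the sign of their difference, which the absence of overlap between the groups fixes and which is no sign of stability. With equal spread assumed in both groups 134 genes passed, 37 higher and 97 lower, and 101 of them were among the 105. With 1 weight per library all 105 were among the 968 that passed. The overlap was smaller in other fits, with 82 of 115 genes under median-of-ratios scaling and 86 of 221 without the trend. It was 28 of 41 without CUR50 replicate 1 and 50 of 209 without CUR50 replicate 2.

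**Figure D1:**
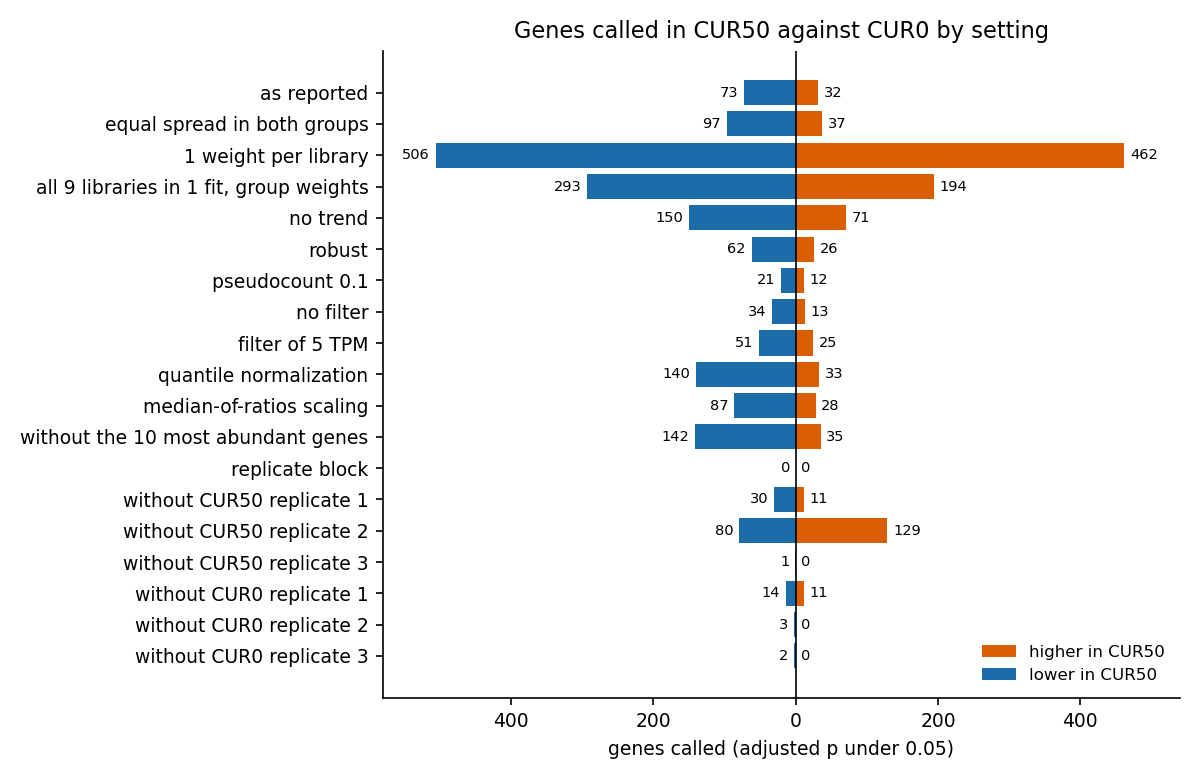
Number of genes called in CUR50 against CUR0 (adjusted p under 0.05) in the fit as reported and under other settings, with genes higher in CUR50 drawn to the right and genes lower in CUR50 to the left. The counts run from 0 with the replicate block to 968 with 1 weight per library, and the fit as reported gives 32 higher and 73 lower.

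Many more genes met looser criteria, and the 105 called genes are among those counted next. If no gene differed, a share of about 0.05 would still have an unadjusted p under 0.05. A share of about 0.1 would then show no overlap between 3 and 3 libraries. Both shares are averages. Genes measured in the same 6 libraries vary together, so a single comparison can lie far from these shares even if no gene differed. At an unadjusted p under 0.05 there were 5606 genes (21.0% of those tested), 3726 higher (13.9%) and 1880 lower (7.03%) in CUR50 leaves, the opposite balance to that among the 105. The CUR50 and CUR0 values did not overlap in 28.5% of tested genes, 5246 with CUR50 higher (19.6%) and 2380 with CUR50 lower (8.9%). The balance of directions changed with the scaling of the libraries. The median of all tested genes was 0.15 with the deposited values, 0.02 after quantile normalization and 0.01 after median-of-ratios scaling. Both scalings bring the libraries together by construction, and the origin of the shift of 0.15 was not tested. The genes without overlap then came to 3417 higher and 3679 lower (quantile) and to 3732 higher and 3538 lower (median-of-ratios), 26.5% and 27.2% of tested genes. Among the genes that passed the adjusted threshold the split was 33 higher and 140 lower with quantile normalization and 28 higher and 87 lower with median-of-ratios scaling. Measured from the median of all tested genes, 28 of the 32 genes that rose and 68 of the 73 that fell differed by at least 1.

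**Figure D2:**
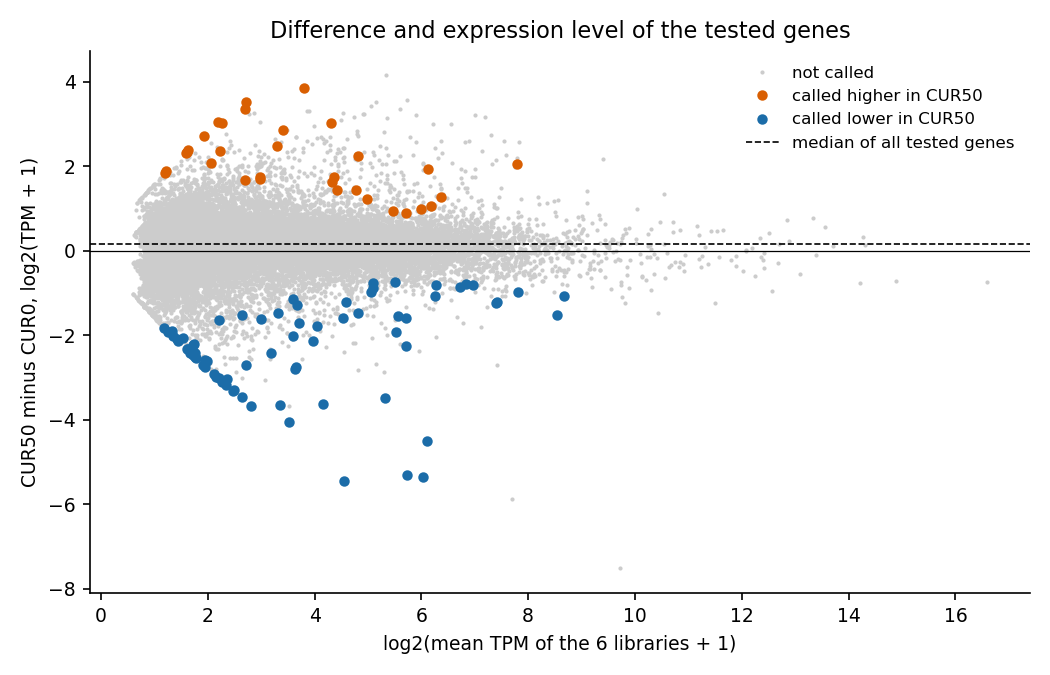
Difference CUR50 minus CUR0 in log2(TPM + 1) against the log2 of the mean TPM plus 1 over the 6 libraries for the 26748 tested genes, each a point. The 32 genes called higher and the 73 called lower are coloured, many uncalled genes lie as far from 0 or farther, and the dashed line marks the median of all tested genes, 0.15.

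A difference of at least 1 on the log2 scale, about a doubling or halving for abundant genes, was reached by 1309 tested genes upward and 1000 downward, of which 29 and 64 passed. At a difference of at least 2 there were 169 and 132 genes, of which 16 and 42 passed. The 2216 genes that differed by at least 1 without a call had a median SD of 0.75 within CUR50 and 0.42 within CUR0, against 0.17 and 0.15 for the 105 genes that passed. Their groups did not overlap in 1311 of the 2216 cases, against 7626 of the 26748 tested genes (28.5%). Genes chosen for a large difference overlap less by that choice, so this count supports nothing.

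The 2 genes that rose and the 2 that fell with the largest difference in mean TPM, among calls without overlap, are shown by identifier. TRINITY_DN5462_c0_g1 had 410.79, 218.58 and 447.41 TPM in the CUR50 leaves, against 74.51, 81.84 and 89.43 TPM in the CUR0 leaves. The lowest CUR50 library, replicate 2, lay 129.2 TPM above the highest CUR0 library. The gene averaged 358.9 ± 123 TPM in CUR50 and 81.93 ± 7.46 TPM in CUR0 (SD, n = 3 each), a ratio of 4.38. On the log2(TPM + 1) scale it was 2.05 ± 0.24 (SE) higher in CUR50 (limma, adjusted p = 0.0378). No other gene averaging 100 TPM or more over the 6 libraries passed the test as higher.

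TRINITY_DN12034_c0_g1 had 112.85, 91.19 and 125.25 TPM in the CUR50 leaves and 29.01, 22.78 and 32.25 TPM in the CUR0 leaves. Its CUR50 values lay close together and all stood at least 58.94 TPM above the CUR0 values. It averaged 109.8 ± 17.2 TPM in CUR50 and 28.01 ± 4.81 TPM in CUR0 (SD, n = 3 each), a ratio of 3.92. The log2(TPM + 1) difference was 1.93 ± 0.19 (SE; limma, adjusted p = 0.0219).

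TRINITY_DN14047_c0_g1 had 214.02, 212.99 and 149.64 TPM in the CUR50 leaves, against 519.94, 596.70 and 524.90 TPM in the CUR0 leaves. The nearest CUR50 and CUR0 libraries were 305.9 TPM apart. It averaged 192.2 ± 36.9 TPM in CUR50 and 547.2 ± 43.0 TPM in CUR0 (SD, n = 3 each), a ratio of 0.351. The log2(TPM + 1) difference was -1.52 ± 0.15 (SE; limma, adjusted p = 0.0248). By mean TPM over the 6 libraries this gene ranked 205 in the table, so the fall concerned one of the more abundant transcripts of the leaf.

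TRINITY_DN34246_c0_g1 had 259.30, 268.74 and 250.79 TPM in the CUR50 leaves and 483.09, 639.28 and 543.16 TPM in the CUR0 leaves. The CUR50 leaves were here the more even group, with an SD of 8.98 TPM around a mean of 259.6, against 78.8 TPM around a mean of 555.2 in the CUR0 leaves (n = 3 each). The ratio was 0.468 and the log2(TPM + 1) difference -1.08 ± 0.14 (SE; limma, adjusted p = 0.0467). Of the 4 genes it had the smallest difference on the log2 scale and lay nearest the threshold.

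The 4 calls were mostly lost when 1 library was left out, in fits with fewer values to estimate the spread. TRINITY_DN5462_c0_g1, TRINITY_DN12034_c0_g1 and TRINITY_DN14047_c0_g1 each kept the call in 1 of the 6 fits that left out a library, the one without CUR50 replicate 2, and TRINITY_DN34246_c0_g1 in 0 of 6. In the fits that lost it, the adjusted p reached 0.176, 0.143, 0.154 and 0.256 for these 4 genes in that order, while their differences stayed between 1.86 and 2.38, 1.80 and 2.06, -1.61 and -1.35, and -1.18 and -0.98 over the 6 fits. Median-of-ratios scaling took the call from TRINITY_DN5462_c0_g1 (adjusted p = 0.0613) and from TRINITY_DN34246_c0_g1 (adjusted p = 0.0668). Over all 13 alternatives that kept every library, the 4 genes passed in 9, 11, 12 and 6, with adjusted p up to 0.15, 0.11, 0.15 and 0.15. Each of the 4 is the one gene of its assembly cluster, a group of similar sequences among which reads can be divided.

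**Figure D3:**
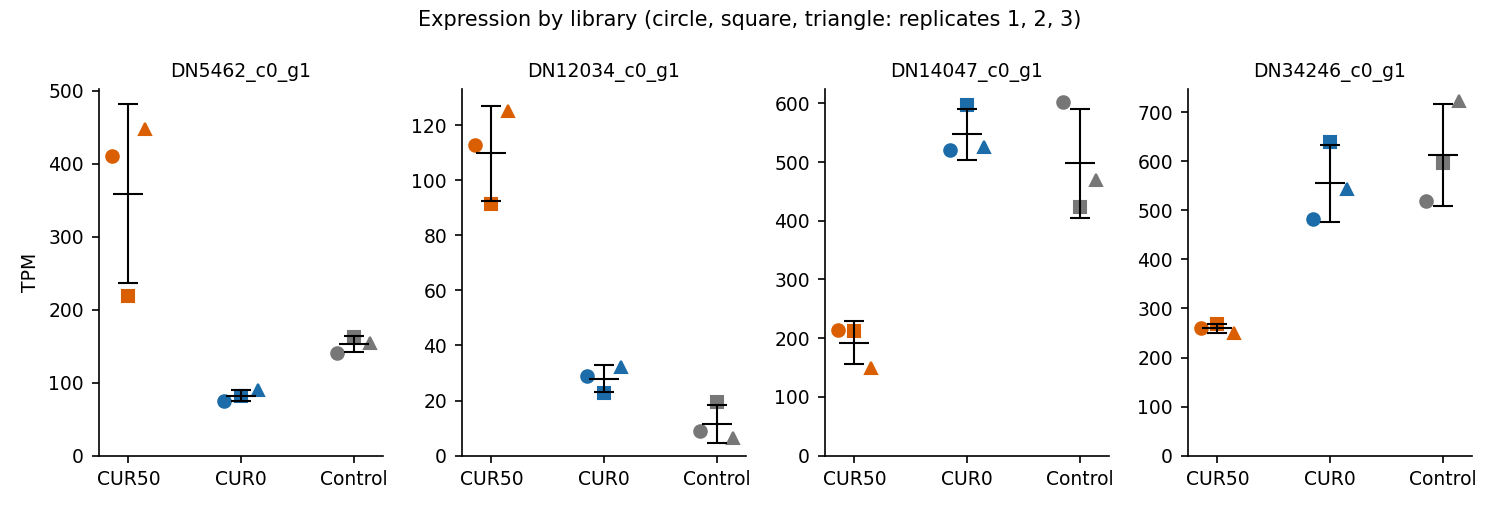
TPM of the 4 genes in each library of CUR50, CUR0 and Control, with a symbol for each replicate and a bar for the mean and SD of 3 libraries; the vertical axes start at 0. DN5462_c0_g1 and DN12034_c0_g1 are higher in all 3 CUR50 libraries than in any CUR0 library, and DN14047_c0_g1 and DN34246_c0_g1 are lower.

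The Control leaves give these 4 genes an unstressed level, shown without a test. TRINITY_DN5462_c0_g1 averaged 358.9 TPM in CUR50, 81.93 TPM in CUR0 and 152.7 ± 11.4 TPM in Control (SD, n = 3), so CUR50 stood above both other groups. TRINITY_DN12034_c0_g1 averaged 11.55 ± 6.86 TPM in Control, below both acid rain groups. TRINITY_DN14047_c0_g1 averaged 498.1 ± 92.7 TPM in Control and TRINITY_DN34246_c0_g1 612.6 ± 104 TPM, and in both the Control values overlapped the CUR0 values and lay above all CUR50 values. None of the 4 therefore had CUR50 values within the range of the Control libraries.

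The share of genes called was highest among the abundant ones; the difference between classes was not tested. Of the genes averaging 100 TPM or more over the 6 libraries, 9 of 1031 changed (0.873%), 1 higher and 8 lower. From 20 to 100 TPM 28 of 5474 changed (0.512%), 10 higher and 18 lower, and from 5 to 20 TPM 29 of 8259 (0.351%), 11 higher and 18 lower. Below 5 TPM 39 of 11984 changed (0.325%), 10 higher and 29 lower. The 8 abundant genes that fell did so moderately, by a median difference of -1.04 and from -0.78 to -1.52, whereas the 29 below 5 TPM had a median of -2.47, from -1.64 to -3.32. The median SE of all tested genes was 0.36 below 5 TPM and 0.14 at 100 TPM and more. For the called genes that fell it was 0.24 and 0.11. Genes that met the filter only through the group where they are high had to differ. The part of the SE and of the filter in the contrast between classes was not tested.

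The called genes are described here by their level in each group. Genes under 1 TPM in all libraries of a group met the filter only through the group where they are high, so they had to differ, and their counts support nothing. Among the 73 genes that fell, 32 were under 1 TPM in all 3 CUR50 libraries, and 33 were at 1 TPM or more in all 6 libraries. These 33 genes had a median difference of -1.47, and their level was a median of 2.85 times as high in CUR0 leaves as in CUR50 leaves. Among the 32 that rose, 12 were under 1 TPM in all 3 CUR0 libraries, and 19 were at 1 TPM or more in all 6, with a median difference of 1.67 and a level a median of 3.71 times as high in CUR50 leaves as in CUR0 leaves. The median level of the 73 genes was 1.92 TPM in CUR50, 15.6 TPM in CUR0 and 4.74 TPM in Control, and that of the 32 genes 16.8 TPM in CUR50, 2.35 TPM in CUR0 and 4.36 TPM in Control.

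Genes listed at exactly 0 in one group are counted separately. Of the tested genes 168 were listed at 0 in all CUR50 libraries and at 1 TPM or more in all CUR0 libraries, of which 20 passed, and 66 were listed at 0 in all CUR0 libraries and at 1 TPM or more in all CUR50 libraries, of which 9 passed. The 20 averaged between 2.57 and 44.9 TPM in CUR0, and the 9 between 2.57 and 11.2 TPM in CUR50. These counts too are a description, for the same reason. A listed 0 does not tell an absent transcript from one missed at the unknown depth. The number of genes above 0 was 53436, 56834 and 53867 in the CUR50 libraries and 58374, 56031 and 56826 in the CUR0 libraries. It was lower in CUR50 on average, but CUR50 replicate 2 lay above CUR0 replicates 2 and 3, and the part of this in the larger count of 168 was not tested.

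Summed over genes, the changed set was a small share of the leaf transcriptome. The 32 genes that rose held 1375, 1102 and 1436 TPM in the CUR50 libraries, against 396.1, 372.8 and 414.3 TPM in the CUR0 libraries, or 0.130% ± 0.018 and 0.0394% ± 0.0021 of all TPM (SD, n = 3). The 73 genes that fell held 1482, 1500 and 1370 TPM in the CUR50 libraries, against 3860, 4216 and 4056 TPM in the CUR0 libraries, or 0.145% ± 0.007 and 0.404% ± 0.018. The genes were chosen on these libraries, so the gap itself is not independent of the calls. The 2 risen genes shown by identifier made up 35.9% of the risen sum in CUR50 and 27.9% in CUR0, and the 2 that fell made up 31.1% of the fallen sum in CUR50 and 27.3% in CUR0. In the Control libraries, which played no part in the choice, the sums were 594.8, 638.7 and 627.9 TPM for the genes that rose and 2871, 2772 and 3006 TPM for those that fell. Both sets of Control sums lay between the CUR50 and CUR0 sums. Since the genes were chosen for a gap between CUR50 and CUR0, this position of Control is a description and no independent evidence.

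**Figure D4:**
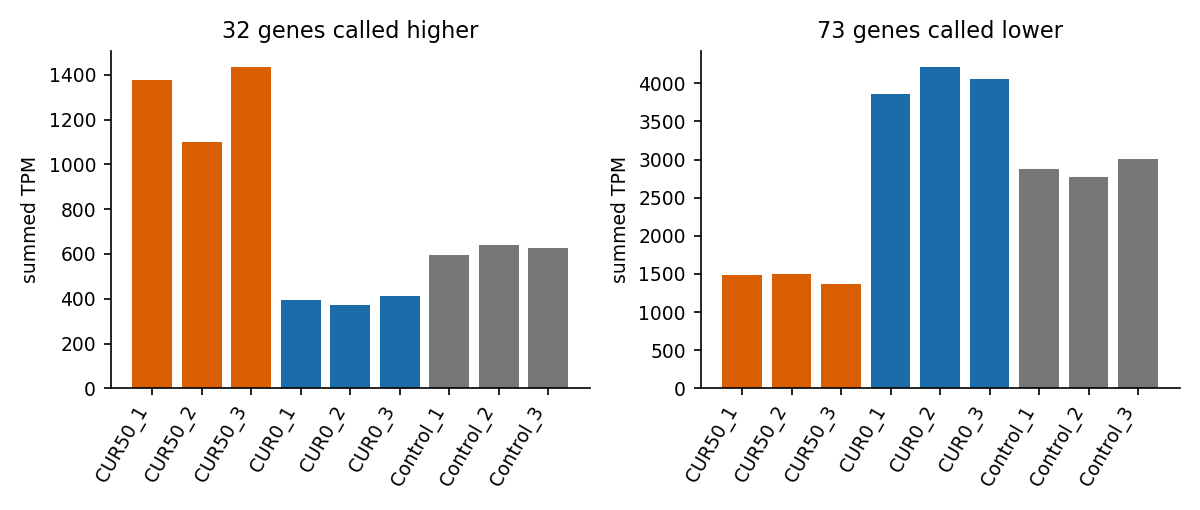
TPM summed over the 32 genes called higher (left) and the 73 called lower (right) in each of the 9 libraries, with bars from 0; the genes were chosen on the CUR50 and CUR0 libraries. The sums for the genes that rose are 1102 to 1436 TPM in CUR50 and 372.8 to 414.3 TPM in CUR0, and those for the genes that fell are 1370 to 1500 TPM in CUR50 and 3860 to 4216 TPM in CUR0.

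The assembly places some identifiers together in a cluster. Of the 105 genes, 49 (46.7%) shared their assembly cluster with another tested gene, against 33.0% of all tested genes. The 105 lay in 104 clusters, and in the 1 cluster with 2 calls both went the same way. The called genes had 64 other tested genes in their clusters. Measured from the median of all tested genes, 49 of these differed in the direction of the called gene and 15 in the opposite direction, none of them past the threshold. Without subtracting that median the counts were 45 and 19. How often genes of other shared clusters agree in direction was not counted, so these counts are a description only. Whether such neighbours are parts of 1 transcript, alleles or gene copies cannot be read from the table.

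For many genes the data were precise enough to bound the response. Among the 6505 genes averaging 20 TPM or more, the 95% interval of the difference lay between -1 and 1 in 5219 (80.2%), so that a doubling or halving was outside the interval. Below 5 TPM this held for 30.6% of 11984 genes, and there the log2(TPM + 1) scale itself compresses differences. The median half-width of the interval was 0.86 below 5 TPM, 0.46 from 5 to 20, 0.35 from 20 to 100, and 0.35 at 100 TPM and more. These intervals are for single genes and are not adjusted for the number of genes.

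**Figure D5:**
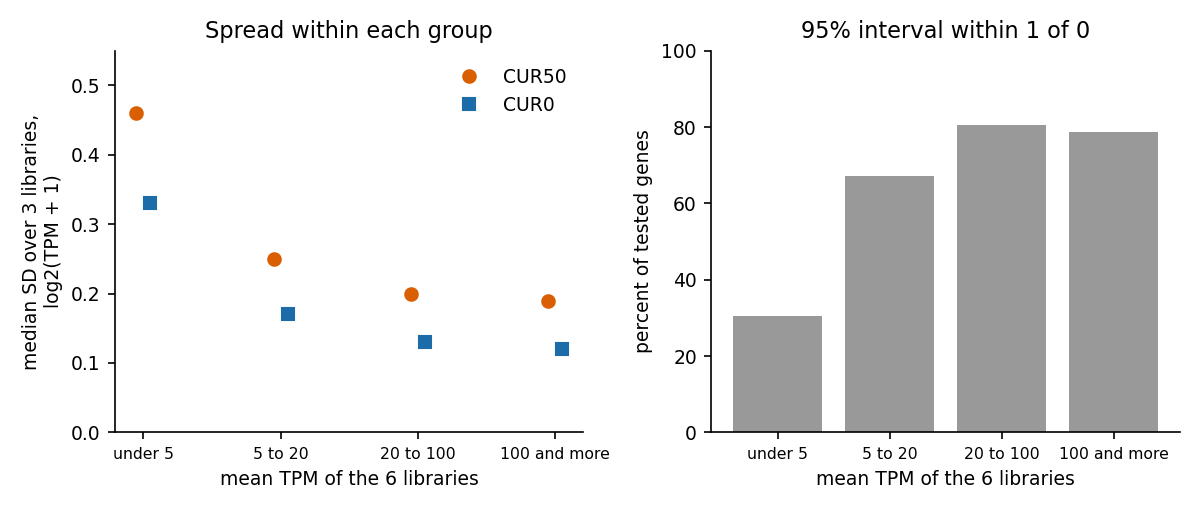
Left, the median SD of log2(TPM + 1) over 3 libraries in CUR50 (circles) and CUR0 (squares) by class of mean TPM; right, the percent of tested genes in each class whose 95% interval of CUR50 minus CUR0 lies between -1 and 1. The median SD is 0.46 in CUR50 and 0.33 in CUR0 below 5 TPM, and 0.19 in CUR50 and 0.12 in CUR0 at 100 TPM and more, and the percent within the bounds is 30.6% below 5 TPM and 78.7% at 100 TPM and more.

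The concentration of the transcriptome did not separate the groups at this replication. The 100 most abundant genes of each library took 45.4%, 42.3% and 38.1% of all TPM in CUR50 and 44.8%, 50.1% and 48.3% in CUR0, a difference of means of -5.83 percentage points (two-sided exact permutation test, p = 0.2). The highest CUR50 library, replicate 1, overlapped the lowest CUR0 library. The number of genes above 0 TPM averaged 54712 ± 1850 in CUR50 and 57077 ± 1191 in CUR0 (SD, n = 3 each; two-sided exact permutation test, p = 0.3). A comparison of 3 against 3 libraries cannot give a p under 0.1 in this test.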

How the data were processed

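The authors deposited TPM values, rounded to 2 decimals, whose columns sum to between 999997 and 1000003. Per the submitters' processing notes, the tools were fastp, RSEM, Bowtie2 and DESeq2, with no version or role. How the transcripts were assembled and annotated is not given in the sources used here. The values are not counts, so limma was used. The 6 CUR50 and CUR0 libraries were fitted alone on log2(TPM + 1) with 1 array weight per group and an intensity trend (4 residual degrees of freedom, prior 2.58), after a filter (1 TPM in 3 of the 6 libraries). Differences on this scale understate changes of low genes. P-values were adjusted by Benjamini-Hochberg over all 26748 genes; the script was tested on simulated data.

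The comparison, the tests and the rule for the genes shown (largest difference in mean TPM among calls without overlap) were chosen with earlier results of these data known. Alternatives changed the spread model, trend, robustness, pseudocount, filter, scaling, clustering, replicate block and libraries kept. The names of 2 Control columns lack a letter of their sample's title. R 4.3.3, limma 3.58.1, version 1.17.8 of data.table, Python 3.11.15 and matplotlib 3.10.9 were used.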

Additional observations from a re-analysis of the deposited data

How the results depend on the processing

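Genes changed numbered 105 (32 higher, 73 lower). Equal spread, robust moderation, the filter of 5 TPM, median-of-ratios scaling and a minimum difference of 1 moved neither the total nor either direction by over 1.5 times. The genes that passed still changed, with 82 of the 105 passing under median-of-ratios scaling and 69 under the filter of 5 TPM. One weight per library gave 968 genes (462 higher, 506 lower; CUR0 replicate 3 then had a weight of 3.94 and CUR50 replicate 1 of 0.367), the fit of all 9 libraries 487 (194 and 293), no trend 221 (71 and 150), pseudocount 0.1 33 (12 and 21) no filter 47 (13 and 34) and TPM summed per cluster 37 (12 and 25). Quantile normalization gave 173 (140 lower), and removal of the 10 most abundant genes 177 (142 lower). The cause of these shifts was not tested. Leaving out 1 library gave from 1 to 209 genes, from 0 to 129 higher and from 1 to 80 lower. Of the 105 genes, 18 (5 higher, 13 lower) passed in all 11 gene-level alternatives that kept every library and used no block. The filter of 5 TPM is among these 11 and left only 79 of the 105 genes to test, so the rest could not be counted.

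With the replicate block 0 genes passed by limma (0 higher, 0 lower, with 4490 at an unadjusted p under 0.05, against 5606 without it). The block leaves fewer residual degrees of freedom, which by itself can remove calls near the threshold. The part of this in the count of 0 was not tested. Same-numbered libraries deviated together with correlations of 0.11, 0.02 and -0.01, and differently numbered ones with correlations from -0.08 to 0.06. With 3 libraries per group these values cannot tell whether same-numbered libraries share a batch, and this was not tested. The deficit of genes above 0 TPM in CUR50, -2365, became an excess of 627 for genes of at least 1 TPM (exact p = 0.5), and leaving out 1 library gave from -3426 to -1716. The difference in the share of the 100 most abundant genes was -5.13 and -4.63 percentage points for the 10 and the 1000 most abundant, and from -7.55 to -3.92 without 1 library. The share of genes without overlap under other scalings was computed after seeing the data.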
